A study of Macaca mulatta with 4 samples.

Results

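Proliferating astroglia are dividing nuclei that also carry the RNA of astrocytes and Bergmann glia. In single-nucleus RNA sequencing of the fetal rhesus macaque cerebellum they were 306 of 32587 nuclei (0.939%) with 500 or more genes detected. A nucleus was a member when it met 3 conditions together. At least 3 of 8 proliferation genes (MKI67, TOP2A, ASPM, DIAPH3, BRCA2, KIF14, KIF11 and MELK) were detected. SLC1A3 had 2 or more UMIs (unique molecular identifiers, each standing for 1 captured RNA molecule). TNC or FGFR2 was also detected. The members were thus chosen by the measured UMIs of these 11 genes, whose values are described here without a test. The members were set against 2078 non-proliferating SLC1A3 nuclei, which met the same SLC1A3, TNC and FGFR2 conditions with none of the 8 proliferation genes detected. They were also set against 1080 proliferating nuclei without SLC1A3, which had at least 3 of the 8 genes and no UMI of SLC1A3.

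Each of the 4 libraries came from 1 fetus. Both Control fetuses, 1 female and 1 male, were untreated and were taken at 130 days of gestation. The LPS fetuses had received 1 mg of lipopolysaccharide, a component of bacterial walls that triggers inflammation, into the amniotic fluid 5 days before delivery. The LPS female was taken at 131 days and the LPS male at 133 days, so age and LPS cannot be told apart. Differences between conditions or classes were judged over fetuses, never over nuclei.

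The libraries held 34282015 to 61665690 UMIs and 6905 to 9256 nuclei. The median nucleus had 4506 UMIs in the Control female and 4062 in the LPS female, against 1882 in the Control male and 2308 in the LPS male. Nuclei held 73.9% and 74.1% of the UMIs of the female libraries, against 58.7% and 38.7% of those of the Control male and the LPS male. RBFOX3, a neuronal splicing factor, was also higher in the RNA outside nuclei of the male libraries (1841 and 1306 CPM, that is UMIs scaled to the same total in each sum) than of the female ones (828 and 705 CPM). Pairs of the 4 libraries shared 113 barcodes, added over the pairs, and no barcode was that of a member in both libraries of a pair.

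Astrocytes and Bergmann glia descend from radial glia of the cerebellar ventricular zone, and dividing glial progenitors persist in the prospective white matter and the Purkinje cell layer while the cerebellum grows. SLC1A3 (GLAST) takes up glutamate and is among the most abundant transporters of Bergmann glia. TNC encodes the matrix protein tenascin-C and FGFR2 a fibroblast growth factor receptor, both typical of immature glia. The most numerous dividing cells of the fetal cerebellum are granule cell precursors, which proliferate in the external granule layer in response to sonic hedgehog from Purkinje cells.

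The Control female gave 109 members, the Control male 74, the LPS female 89 and the LPS male 34. SLC1A3 stood at 1833 CPM in the members of the Control female, 1070 in the Control male, 1641 in the LPS female and 1148 in the LPS male. In the non-proliferating SLC1A3 nuclei it stood at 2230, 2363, 2650 and 2099 CPM in the same order. The members were thus lower in each fetus. TNC in the members was at 2103 CPM in the Control female, 980 in the Control male, 1844 in the LPS female and 833 in the LPS male. It was at 31.6 to 44.5 CPM in proliferating nuclei without SLC1A3. The RNA outside nuclei held 421 to 662 CPM of SLC1A3 and 209 to 439 CPM of TNC. TNC and FGFR2 were both detected in 185 members, TNC alone in 77 and FGFR2 alone in 44.

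Among the proliferation genes of the rule, DIAPH3, a formin that organises the cytokinetic ring, was at 1326 CPM in the members of the Control female, 601 in the Control male, 1230 in the LPS female and 702 in the LPS male. TOP2A, the topoisomerase that untangles replicated chromosomes, was between 442 CPM in the Control female and 542 CPM in the LPS female. MKI67, a coat protein of mitotic chromosomes, was between 191 CPM in the Control male and 336 CPM in the LPS male. DIAPH3 was higher in both females than in both males, a split that TOP2A and MKI67 did not show. All 8 genes were detected in 57 members and only 3, the minimum, in 60.

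The members carried glial RNA in unequal amounts. SLC1A3 had exactly 2 UMIs in 44 members, 3 to 4 in 48, 5 to 9 in 73 and 10 or more in 141. A score without the genes of the rule was taken from 47 astroglial and Bergmann glia genes, as their share of 2000 UMIs drawn from each nucleus. The limit was the value that 95% of the proliferating nuclei without SLC1A3 of the same library did not pass. Of 295 members deep enough to be scored, 194 (65.8%) were above it. The share was 16.7% (7 of 42) at 2 UMIs of SLC1A3, 51.1% (23 of 45) at 3 to 4, 64.2% (43 of 67) at 5 to 9 and 85.8% (121 of 141) at 10 or more. By fetus it was 68.8% in the Control female, 59.2% in the Control male, 69.9% in the LPS female and 59.4% in the LPS male. Most members with 5 or more UMIs of SLC1A3 thus passed the limit, and few of those at the limit of the rule did. The limit came from nuclei chosen to lack SLC1A3, so the rise with SLC1A3 is partly set by that choice. A droplet that held a dividing nucleus and an astroglial nucleus together could also pass. The score thus does not settle the label of a nucleus.

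**Figure D1:**
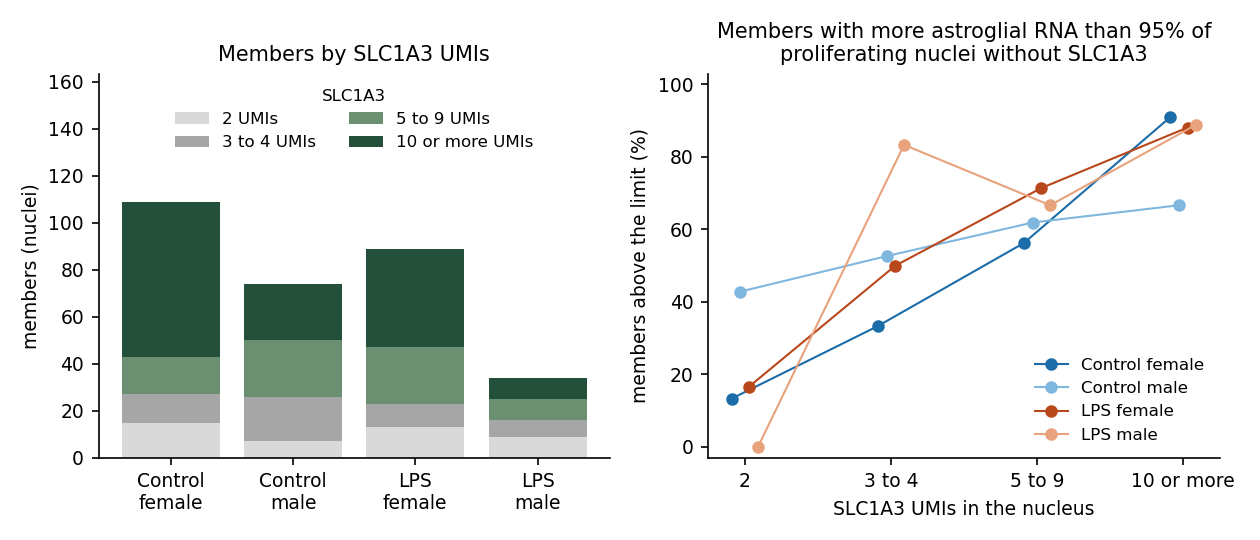
Members of each fetus by their number of SLC1A3 UMIs (left, bars in nuclei, stacked) and the percent of scored members whose astroglial score passed the limit of their library (right, 1 line per fetus). The Control female had 66 of its 109 members in the class of 10 or more UMIs and the LPS male 9 of 34, and each line was higher at 10 or more UMIs than at 2.

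At the limit of the rule, the 44 members with 2 UMIs of SLC1A3 had 325 CPM of TNC, 74.98 CPM of GRIA1 and 1727 CPM of RBFOX3 over all libraries. The 139 proliferating nuclei just outside it, with 1 UMI of SLC1A3 and TNC or FGFR2 detected, had 169 CPM of TNC, 18.4 CPM of GRIA1 and 1413 CPM of RBFOX3. The 141 members with 10 or more UMIs had 2488 CPM of TNC, 1296 CPM of GRIA1 and 1012 CPM of RBFOX3. In the Control male TNC was at 670 CPM at 2 UMIs and 848 CPM at 10 or more, against 2533 to 3103 CPM at 10 or more in the other fetuses, and its summed astroglial genes were at 8953 and 8990 CPM. GRIA1 is an AMPA receptor subunit of Bergmann glia that the rule did not use. The fetuses differed in it: at 2 UMIs it was at 7.56 CPM in the Control female, 396 in the Control male, 111 in the LPS female and 11.6 in the LPS male, on 7 to 15 members each, against 630 to 2108 CPM at 10 or more. In the Control male the members with 2 UMIs were nearer to those with 10 or more (630 CPM) than to the nuclei with 1 UMI (74.9 CPM). Among the members with 10 or more UMIs, RBFOX3 was at 399 CPM in the Control female, 3082 in the Control male, 209 in the LPS female and 55.5 in the LPS male. The Control male had the highest summed level, and RBFOX3 was detected in 10 of its 24 members of this kind, against 26 of 66 in the Control female, 15 of 42 in the LPS female and 3 of 9 in the LPS male. The estimated share of free RNA in members was 23.4% in the Control female, 45.1% in the Control male, 14.1% in the LPS female and 0% in the LPS male, and its part in these levels was not tested.

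Over whole nuclei, the astroglial score had a median of 2.15% in members, 2.6% in non-proliferating SLC1A3 nuclei and 1.05% in proliferating nuclei without SLC1A3. A score from 23 genes of the granule lineage had medians of 0.6%, 0.5% and 1.15%. The members' medians were closest to those of the non-proliferating SLC1A3 nuclei on both scores. This is partly set by the choice of nuclei, since the other proliferating nuclei had to lack SLC1A3. In the Control male the members' astroglial median was 1.75%, against 2.4% in its non-proliferating SLC1A3 nuclei, and in the Control female it was 2.7% against 2.35%. In summed CPM only the members of the Control male were nearer to the proliferating nuclei without SLC1A3. They had 9098 CPM of astroglial genes, against 13563 in non-proliferating nuclei and 6251 in the proliferating ones. For granule genes they had 11140 CPM, against 5983 and 11999.

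**Figure D2:**
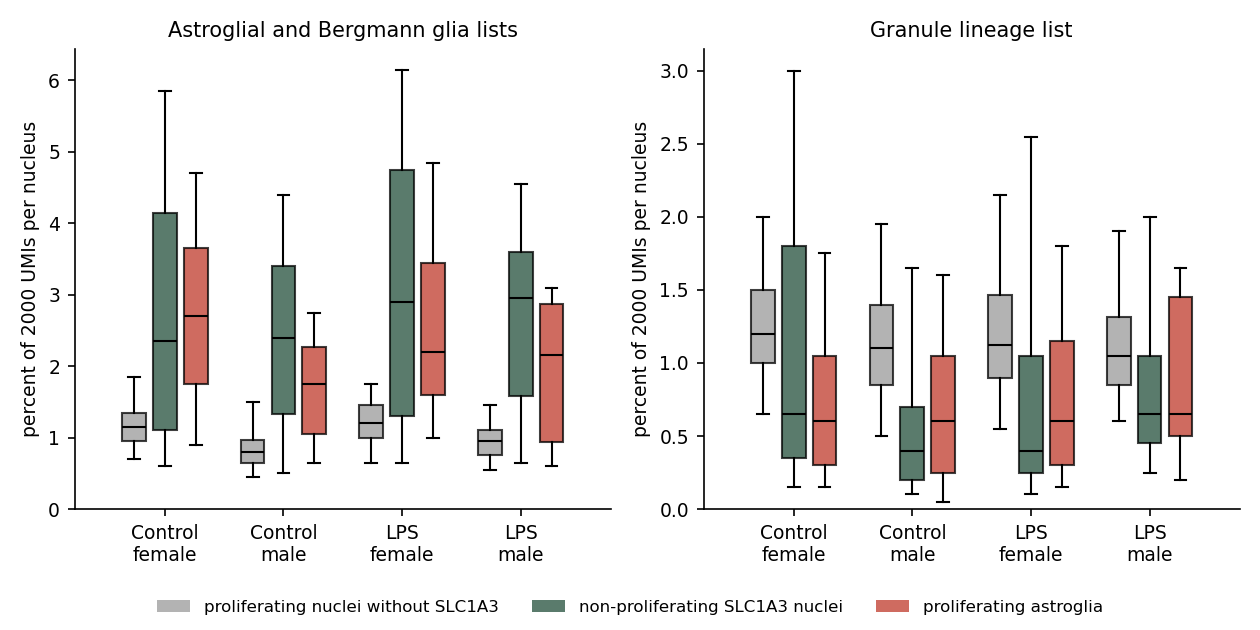
Astroglial and Bergmann glia genes (left) and granule lineage genes (right) as a percent of 2000 UMIs drawn from each nucleus, by fetus and class; boxes run from the lower to the upper quartile with the median as a line, and whiskers run from the 5th to the 95th percentile. The members' median lies above that of the proliferating nuclei without SLC1A3 on the left and below it on the right in every fetus. The boxes of these classes overlap on the right in every fetus and on the left in the LPS male.

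Members also held more UMIs than either other class, a difference that the rule partly fixes, since members had to show several genes and the other classes had to lack some. Their median UMI number was 7950 in the Control female, 4450.5 in the Control male, 7166 in the LPS female and 5194 in the LPS male, against 2437.5 to 5070 in non-proliferating SLC1A3 nuclei and 2514 to 4949.5 in proliferating nuclei without SLC1A3. Allowing 2 or fewer proliferation genes raised the median of the non-proliferating nuclei in the Control female from 5070 to 5532. Scrublet called 24.5% of members doublets (75 of 306), against 12.1% and 8.70% of the other classes. Pooled over fetuses, the share of doublets was 29.5% at 2 UMIs of SLC1A3 and 19.1% at 10 or more. It was 20.0% and 19.7% in the Control female, and 57.1% and 16.7% in the Control male. In the LPS female it was 30.8% and 23.8%, and in the LPS male 22.2% and 0%. Because doublets were called more often in members than in the other classes, the totals of calls and several lists are also given with doublets left out or for members with 5 or more UMIs of SLC1A3. The latter setting was chosen after the data were seen.

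The comparison with non-proliferating SLC1A3 nuclei set the members beside nuclei that met the same glial criteria without the proliferation genes. That class was not purely astroglial either: in the Control female the lower quartile of its astroglial score was 1.1%, under the limit of 1.85% for that library. UMIs were summed per fetus and class and tested with edgeR's quasi-likelihood test with the fetus as a block. A gene was called when its Benjamini-Hochberg adjusted p was under 0.1 and its log2 fold change exceeded 0.25 in size. Of 9945 genes tested, 16.2% were called, 911 higher (9.16%) and 700 lower (7.04%) in members. With doublets left out 623 were higher and 316 lower, and at 5 or more UMIs of SLC1A3 743 and 612. Without the LPS male 717 were higher and 380 lower, and without the LPS female 562 and 280.

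The cell cycle genes separate these classes by the way the nuclei were chosen, so they check the label and are no independent result. Of the S phase list 35 of 35 tested genes were higher (median log2 fold change 2.52, against −0.02 over all genes), and of the G2 and mitosis list 44 of 45 (median 4.53). APOLD1, a gene of the mitosis list, was at 511 CPM in the Control female, 599.8 in the Control male, 558 in the LPS female and 599.5 in the LPS male. It was at 15.7 to 23.2 CPM in the non-proliferating nuclei. By the rule for named genes the largest changes included IQGAP3, a scaffold protein, at 49.1 to 67.6 CPM in members against 0 CPM in 3 fetuses and 0.528 CPM in the Control male. They also included the DNA glycosylase NEIL3 (log2 fold change 6.93), the replication factor TICRR (6.64), the mitotic kinesins KIF23 (6.14) and KIF4A (5.80), and GTSE1 (5.88). Of the cyclin and inhibitor list 7 of 14 were higher, among them the mitotic transcription factors FOXM1 (4.70 ± 0.291, SE) and MYBL2 (5.07 ± 0.419). The cyclin D1 gene CCND1 (−0.34) and the kinase genes CDK4 (−0.35) and CDK6 (−0.02) were not called.

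The rule asked the same of SLC1A3, TNC and FGFR2 in both of these classes, and the other astroglial genes did not enter it. Of 27 astroglial genes tested, 18 were lower in members, 9 were not called and none was higher (median log2 fold change −0.62). ACSBG1, an acyl-CoA synthetase of Bergmann glia and astrocytes, was at 47.3, 30.5, 47.8 and 93.5 CPM in members and at 82.3, 79.2, 74.5 and 173 CPM in non-proliferating nuclei, in the order Control female, Control male, LPS female, LPS male. It was lower in members of each fetus (log2 fold change −0.92 ± 0.161, edgeR adjusted p = 0.00273), and the call held in each of 16 alternatives. GFAP, the intermediate filament of mature astrocytes, was at 114, 73.8, 57.3 and 119 CPM in members against 143, 211, 81.1 and 257 CPM. Its change (−0.85 ± 0.188, edgeR adjusted p = 0.0120) lost the call without the LPS male and at 5 or more UMIs of SLC1A3, with adjusted p up to 0.137 over the alternatives. SPARCL1, a synapse-modifying matrix protein, was lower by log2 0.97 in size (−0.97, edgeR adjusted p = 0.0126), from 201 to 248 CPM in non-proliferating nuclei to 59.5 to 180 CPM in members. The water channel gene AQP4 (−0.72) and the connexin gene GJA1 (−1.22) were also called lower, the latter on 0 to 14 UMIs per fetus in members. The glutamate transporter gene SLC1A2 (−0.12) and the potassium channel gene KCNJ10 (−0.36) were not called. The transcription factor genes NFIA (0.10) and NFIB (0.22), which act in gliogenesis, were also not called.

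Of 13 Bergmann glia genes 4 were lower and none higher (median −0.44). ITPR2, the calcium release channel of astroglia, was at 186, 245, 161 and 204 CPM in members against 250, 426, 267 and 301 CPM (log2 fold change −0.65 ± 0.118, edgeR adjusted p = 0.00341). The AMPA receptor subunit GRIA4 was abundant in both classes, at 2064 to 5086 CPM in members against 2967 to 6335 CPM, and was called lower (−0.44). GRIA1 was lower in the Control male, the LPS female and the LPS male but not in the Control female (898 against 869 CPM). The calls of GRIA4 and GRIA1 were both lost with doublets left out and on leaving out either LPS fetus, and that of GRIA1 in 7 of 16 alternatives in all.

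With doublets left out, 11 of 27 astroglial and 2 of 12 Bergmann glia genes were lower, and with members of 5 or more UMIs of SLC1A3, 15 of 26 and 6 of 11. After thinning to 2000 UMIs, of nuclei already classed at full depth, the counts were 9 of 26 and 3 of 8. After subtraction of free RNA they were 11 of 25 and 6 of 11. That subtraction was unequal between the classes: non-proliferating nuclei were estimated at 44.7% free RNA in the Control female, 32.0% in the Control male, 19.3% in the LPS female and 38.6% in the LPS male. There the members were at 0%, so nothing was subtracted from them. The direction of the median held in all of these, between −0.27 and −0.83. At 5 or more UMIs the median was −0.61 for Bergmann glia genes and −0.53 for astroglial genes. Members carried more granule RNA than the non-proliferating nuclei in the Control male (11140 against 5983 CPM summed over 23 genes), the LPS female (9717 against 8481) and the LPS male (10540 against 9695), and less in the Control female (8754 against 11090). The part of this granule RNA in the lower astroglial genes was not tested.

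Of 23 genes of radial glia and progenitors 2 were higher, 5 lower and 16 not called (median −0.40), and with doublets left out none was higher and 2 were lower (median −0.34). CD44, a hyaluronan receptor of glial progenitors and reactive astrocytes, was lower (−0.78 ± 0.164, edgeR adjusted p = 0.00910), at 36.9 to 59.5 CPM against 54.3 to 127. SOX2 (−0.44), VIM (−0.51), NES (0.49) and HES5 (−0.36) were not called.

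Of 15 mitogen and growth factor receptor genes, 5 were lower and none higher. FGFR1 was at 131, 212, 153 and 196 CPM in members against 219, 475, 262 and 358 CPM in non-proliferating nuclei (log2 fold change −0.92 ± 0.122, edgeR adjusted p = 0.000376). It was lower in each fetus and called in each of 16 alternatives. The receptors EGFR (−0.37), ERBB4 (−0.10), PDGFRA (−0.24) and IGF1R (−0.08) were not called. With doublets left out 1 of the 15 receptor genes was lower.

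**Figure D3:**
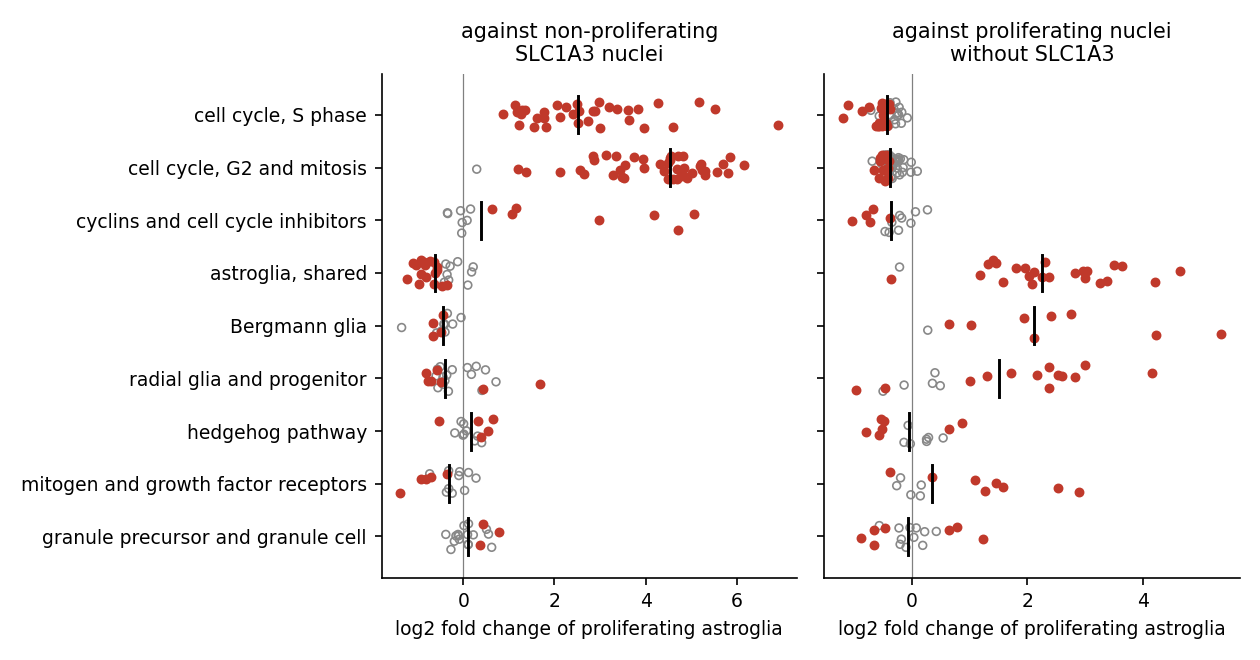
Log2 fold change of members against non-proliferating SLC1A3 nuclei (left) and against proliferating nuclei without SLC1A3 (right) for the tested genes of 9 lists; filled points were called, open points were not, and black bars mark list medians. Cell cycle genes lie far to the right in the left panel and near 0 in the right panel, and astroglial genes sit slightly below 0 on the left and mostly above 1 on the right.

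The comparison with proliferating nuclei without SLC1A3 set dividing astroglia beside the other dividing nuclei of the same fetuses. Of 9047 genes tested 24.1% were called, 1256 higher (13.9%) and 924 lower (10.2%) in members. With doublets left out 1101 were higher and 774 lower, and at 5 or more UMIs of SLC1A3 1151 and 836. Without the Control female 851 were higher and 518 lower, and without the LPS female 960 and 538. The proliferating nuclei without SLC1A3 carried RBFOX3 at 1104, 3555, 1066 and 2626 CPM and members at 521, 2766, 507 and 1947 CPM in the order Control female, Control male, LPS female, LPS male (log2 fold change −0.66 ± 0.131, edgeR adjusted p = 0.00294).

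Here the astroglial lists separate the classes by the choice of nuclei, so they describe the members. Of 25 astroglial genes 23 were higher (median log2 fold change 2.25, against −0.03 over all genes), of 9 Bergmann glia genes 8, and of 18 progenitor genes 11. GRIA1 was at 898, 544, 982 and 799 CPM in members against 12.3, 18.4, 27.8 and 30.2 CPM (5.35 ± 0.210). The potassium channel subunit KCNIP1 (4.23), the GABA transporter SLC6A11 (4.21), the growth factor PTN (2.96) and ID4 (4.16), an inhibitor of bHLH factors in neural progenitors, were among the called genes with the smallest p of their lists. The largest changes by the rule for named genes were led by LGR6 (5.64), a receptor for R-spondins, with EMID1 (5.08), FREM2 (5.02), NWD2 (4.73), RUBCNL (4.58), MKX (4.50) and the angiopoietin gene ANGPT1 (4.26). Other higher progenitor genes, named after their values were seen, were the Notch receptor genes NOTCH1 (2.59), NOTCH2 (1.01) and NOTCH3 (2.999, also on the endothelial and mural list), the ligand gene JAG1 (2.17) and HES1 (2.82). PAX6 (−0.46), which marks granule precursors, and LRIG3 (−0.96) were lower.

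Both classes had to show 3 or more of the 8 proliferation genes. Members held more UMIs per nucleus, so they could reach 3 of these genes at a lower level per UMI. The levels of the other cell cycle genes are thus partly set by the rule, and they describe how far the classes resembled each other. In members 18 of 37 S phase genes were lower and none higher (median −0.43), and 17 of 48 G2 and mitosis genes were lower and none higher (median −0.38). Summed over the lists, S phase genes stood at 4194, 3876, 4370 and 4571 CPM in members and at 5894, 6899, 5880 and 5178 CPM in proliferating nuclei without SLC1A3. Mitosis genes were at 6765, 6104, 6956 and 7798 CPM against 8899, 11133, 9020 and 7720 CPM. The members were lower in every fetus for S phase and in all but the LPS male for mitosis. At 5 or more UMIs of SLC1A3 the members of the LPS male were higher for S phase too (5599 against 5178 CPM).

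Fewer cell cycle genes were lower under each of these alternatives. Thinning drew UMIs from nuclei already classed at full depth, so it leaves the part set by the rule in place. With doublets left out 9 of 37 S phase genes and 1 of 48 mitosis genes were lower. At 5 or more UMIs of SLC1A3 the counts were 11 and 3, with free RNA subtracted 12 and 6, and after thinning to 2000 UMIs 6 of 30 and 3 of 44, with 1 mitosis gene higher. The medians of both lists stayed below 0, at −0.29 and −0.20 with doublets left out, −0.40 and −0.31 at 5 or more UMIs, −0.40 and −0.34 with free RNA subtracted, and −0.20 and −0.12 after thinning. Among the named genes, the factors E2F7 and E2F1, the chromatin remodeller HELLS and the kinesin KIF18A held the call in every alternative in which they were tested. E2F7, a repressor of the cell cycle program, was at 64.7, 44.9, 62.8 and 89.3 CPM in members against 155, 154, 145 and 105 CPM (log2 fold change −1.11 ± 0.186, edgeR adjusted p = 0.000904). HELLS was at 131, 311, 156 and 319 CPM against 223, 573, 229 and 451 CPM (−0.61 ± 0.112, edgeR adjusted p = 0.00162).

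Of 14 cyclin and cell cycle inhibitor genes, a list that also holds cyclin-dependent kinases and transcription factors, 5 were lower and none higher. Leaving out doublets, 1 was higher and 4 lower, at 5 or more UMIs of SLC1A3 1 and 3, and after thinning to 2000 UMIs 1 and 3 of 9. CDK6, a partner of D cyclins, was at 177, 152, 190 and 132 CPM in members against 382, 165, 422 and 195 CPM (log2 fold change −0.72 ± 0.152, edgeR adjusted p = 0.00457). It was lower in each fetus, by little in the Control male. E2F3 was at 143 to 192 CPM against 229 to 358 CPM (−0.68 ± 0.118, edgeR adjusted p = 0.00116). CDK4 was called (−1.03 ± 0.296) on 2 to 14 UMIs per fetus, and lost the call without the Control female, without the LPS female and in DESeq2. CCNE2 (−0.46), CDKN1B (−0.34), FOXM1 (−0.21) and MYBL2 (0.06) were not called.

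Hedgehog pathway genes placed the members between the other classes for the transcription factors. GLI3, the main repressor of the pathway, was at 768 CPM in the members of the Control female, 625 in the Control male, 775 in the LPS female and 514 in the LPS male. Non-proliferating SLC1A3 nuclei had 457, 408, 475 and 333 CPM, and proliferating nuclei without SLC1A3 had 1395, 940, 1601 and 999 CPM. The members lay between the other classes in each fetus. The log2 fold change was 0.65 ± 0.109 against the former (edgeR adjusted p = 0.00199) and −0.78 ± 0.112 against the latter (edgeR adjusted p = 0.000263), and both calls held in each of 16 alternatives. GLI2, an activator of the pathway, also lay between (0.53 ± 0.129 and −0.51 ± 0.107), and its first call was lost with doublets left out, at 5 or more UMIs of SLC1A3 and in 4 other alternatives.

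PTCH1, the sonic hedgehog receptor and itself a target of the pathway, was at 288, 358, 270 and 387 CPM in members against 188, 268, 172 and 262 CPM in proliferating nuclei without SLC1A3 (log2 fold change 0.64 ± 0.107, edgeR adjusted p = 0.000902). PTCH1 is also on the Bergmann glia list, and glial genes separate these classes by the choice of nuclei. Its values there thus describe the members. Against non-proliferating SLC1A3 nuclei it was not called (−0.05). The coreceptor BOC (−0.47), SMO (−0.53) and CDON (−0.56) were lower than in proliferating nuclei without SLC1A3, and the ciliary gene EVC2 (0.86) was higher. Over the list, 4 of 14 were higher and 1 lower against non-proliferating nuclei, where 9.16% of all genes were higher and 7.04% lower. Against the others 2 of 14 were higher and 5 lower, where 13.9% of all genes were higher and 10.2% lower. With doublets left out, 1 of 15 was higher and 1 lower against non-proliferating nuclei. In that setting 623 of all 9292 genes were higher and 316 lower.

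Of 13 receptor genes 7 were higher than in the other dividing nuclei, 1 lower and 5 not called (median 0.34), where 13.9% of all genes were higher and 10.2% lower. The receptor list shares NTRK2, FGFR3 and BMPR1B with the astroglial list and LIFR with the progenitor list. Glial genes separate these classes by the choice of nuclei, so the receptor values describe the members too. EGFR, through which glial progenitors respond to epidermal growth factor, was at 520, 369, 442 and 459 CPM in members against 199, 206, 170 and 214 CPM (log2 fold change 1.27 ± 0.129, edgeR adjusted p = 1.69e-05). The groups of 4 did not overlap. NTRK2 (1.45 ± 0.225), LIFR (2.53 ± 0.212) and PDGFRB (2.90 ± 0.357) were also higher, PDGFRB on 11 to 20 UMIs per fetus in members. The lower gene was TGFBR1 (−0.37). Leaving out doublets, 6 were higher and 1 lower.

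Granule lineage genes kept a substantial level in members. Summed over the list they were at 8754, 11140, 9717 and 10540 CPM, against 12886, 11999, 12154 and 12620 CPM in proliferating nuclei without SLC1A3. The RNA outside nuclei held 12534 to 15467 CPM of the same genes. The netrin receptor UNC5C was at 1764, 1504, 1944 and 1433 CPM in members against 4846, 2147, 4159 and 2384 CPM (log2 fold change −0.88 ± 0.135, edgeR adjusted p = 0.000452). NEUROD1, a differentiation factor of granule cells, was lower (−0.66), and lost the call with free RNA subtracted. In the other direction, ETV1 of the same list was higher (1.23, edgeR adjusted p = 0.00336), and its call held in each of 16 alternatives. Of 18 granule genes 3 were higher, 4 lower and 11 not called, where 13.9% of all genes were higher and 10.2% lower. Against non-proliferating SLC1A3 nuclei 3 of 19 were higher, UNC5C (0.79), PAX6 (0.43) and TIAM1 (0.36), where 9.16% of all genes were higher. With doublets left out none was called, while 4 of 18 were higher at 5 or more UMIs of SLC1A3.

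Markers of other cell types differed in level in members. OLIG1 was at 0 in every fetus, and also in the RNA outside nuclei. Of 11 microglial genes, 2 were at 0 in members of the Control female and Control male, 7 in the LPS female and 8 in the LPS male, and their sum was 12.8 to 78.6 CPM. Oligodendrocyte precursor genes summed to 1620 to 4352 CPM, mostly through LHFPL3 (816 to 2895 CPM), which Bergmann glia also express. Against non-proliferating nuclei 5 of 7 precursor genes were lower, led by VCAN (−0.79) and PCDH15 (−0.97). Leaving out doublets, 3 of 7 were lower. The same list had 3 of 7 genes higher against proliferating nuclei without SLC1A3, LHFPL3 (2.41), VCAN (1.29) and PCDH15 (0.63). There 1 was lower, ADAMTS17 (−0.51). Fibroblast genes summed to 1172 CPM in the members of the Control female, 1493 in the Control male, 1144 in the LPS female and 1539 in the LPS male, mostly through LAMA2 (799 to 1152 CPM). COL1A2 was at 32.8 CPM in the members of the Control female, below the 45.1 CPM of the RNA outside nuclei there. Against non-proliferating nuclei 6 of 8 were lower, and 3 of 8 with doublets left out, with DCN at 8.69, 52.9, 39.6 and 12.8 CPM in members against 80.6, 125, 184 and 22.2 CPM (−2.03 ± 0.277, edgeR adjusted p = 0.000462). Against proliferating nuclei without SLC1A3, 4 of 6 fibroblast genes were higher, led by COL1A2 (4.11). The myelin genes MBP (−1.42) and ST18 (−0.58) were lower there, and of 5 inhibitory lineage genes TFAP2B (1.70) and PAX2 (1.19) were higher on 2 to 47 and 6 to 26 UMIs per fetus, and both lost the call without the LPS female. For the remaining lists against non-proliferating nuclei and against dividing nuclei without SLC1A3, endothelial and mural genes were 1 of 4 lower and 1 of 3 in either direction, and choroid and ependymal genes were 1 of 1 lower and 1 of 2 in either direction. Inflammation and glial reactivity genes were 1 higher and 3 lower of 13, and 4 higher and 2 lower of 12. None of the 3 microglial and 6 inhibitory lineage genes tested against non-proliferating nuclei was called, nor was the 1 microglial gene tested against the other class. Of 4 myelin genes 2 were lower than in non-proliferating nuclei.

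The balance between mitosis and S phase genes was also compared. It is partly set by the rule, which asked for proliferation genes, and it gives no position in the cycle. The log2 ratio of G2 and mitosis UMIs to S phase UMIs, without the genes of the rule, was 0.69 in the Control female, 0.66 in the Control male, 0.67 in the LPS female and 0.77 in the LPS male. Proliferating nuclei without SLC1A3 had 0.59, 0.69, 0.62 and 0.58, and non-proliferating SLC1A3 nuclei were between −0.58 and −0.42. With 4 or more proliferation genes asked for, the members had 0.79, 0.81, 0.79 and 0.80. The Control and LPS values overlapped in members. The difference LPS minus Control was 0.05 (0.67 ± 0.02 in Control and 0.72 ± 0.07 in LPS, SD, n = 2 each; 2-sided exact permutation p = 0.667, where 0.333 is the smallest p this design allows). The groups did not overlap at 3 or more UMIs of SLC1A3 (0.70 and 0.73 in Control, 0.75 and 0.81 in LPS, female then male). At 5 or more UMIs they did not overlap either (0.62 and 0.55 in Control, 0.81 and 0.94 in LPS). After thinning to 2000 UMIs they lay apart the other way (0.76 and 0.79 in Control, 0.63 and 0.73 in LPS).

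The share of proliferating astroglia was the first readout compared between LPS and Control. Of all nuclei it was 1.18% in the Control female (95% exact interval 0.967 to 1.42), 0.858% in the Control male (0.675 to 1.08), 1.29% in the LPS female (1.04 to 1.58) and 0.436% in the LPS male (0.301 to 0.608). The intervals cover counting error only. The LPS male was the lowest and the LPS female the highest, so the groups overlapped. The mean was 1.02% ± 0.226 in Control and 0.862% ± 0.603 in LPS (SD, n = 2 each; 2-sided exact permutation p = 1.00).

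Of SLC1A3 nuclei, members were 8.64% in the Control female, 8.26% in the Control male, 10.3% in the LPS female and 5.63% in the LPS male (difference −0.459 points, 2-sided exact permutation p = 1.00). Of proliferating nuclei they were 16.5%, 16.4%, 15.7% and 13.5% in the same order, both LPS fetuses below both controls (difference −1.89 points, 2-sided exact permutation p = 0.333, the smallest possible). The spread among controls was 0.0323 points there and among LPS fetuses 1.54 points. At 5 or more UMIs of SLC1A3 members were 12.4%, 10.7%, 11.6% and 7.14% of proliferating nuclei in the same order. The LPS female was then above the Control male, so the groups overlapped. Because detection depends on depth, the share of all nuclei was also taken after each nucleus was thinned to 2000 UMIs, which left out 4745 of the nuclei of the Control male and 3260 of those of the LPS male. It was then 0.669% in Control and 0.401% in LPS (2-sided exact permutation p = 0.667). As a share of proliferating nuclei, members thinned to 2000 UMIs were 9.59% in the Control female, 12.1% in the Control male, 7.78% in the LPS female and 7.83% in the LPS male (difference −3.05 points, 2-sided exact permutation p = 0.333, the smallest possible). Thinned to 1000 UMIs, the share of proliferating nuclei was 6.56%, 5.76%, 6.74% and 3.06% in the same order, so the LPS female was the highest and the groups overlapped (2-sided exact permutation p = 1.00). As a share of SLC1A3 nuclei, members thinned to 2000 UMIs were 5.91%, 6.53%, 5.80% and 4.23% in the same order. Both LPS fetuses were then below both controls (2-sided exact permutation p = 0.333, the smallest possible). At 1000 UMIs the LPS female was the highest in this share too.

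**Figure D4:**
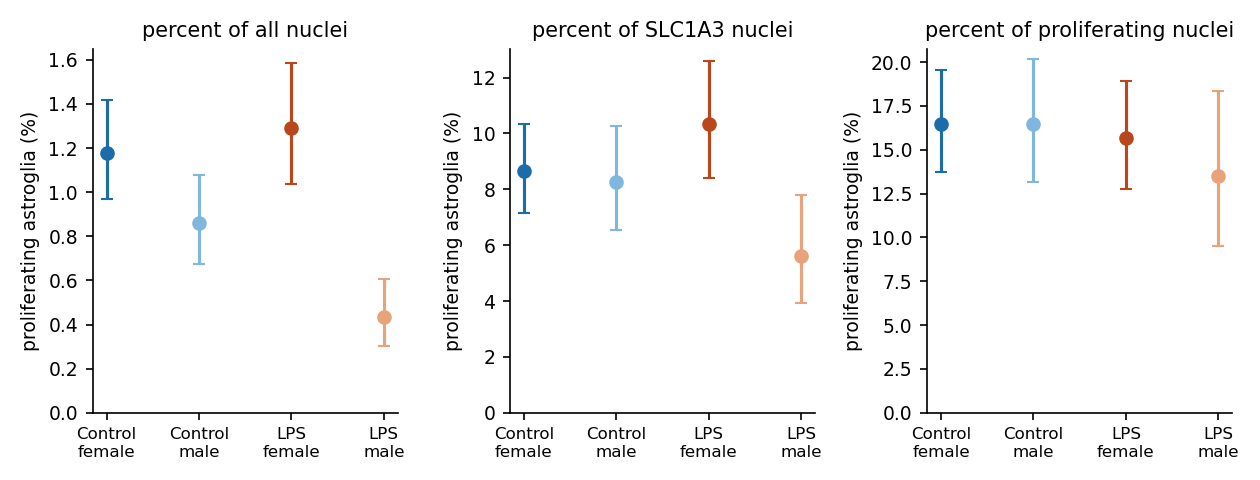
Percent of all nuclei (left), of SLC1A3 nuclei (middle) and of proliferating nuclei (right) that were proliferating astroglia, by fetus; points are percentages and bars are 95% exact binomial intervals. The LPS male lies lowest in each panel, at 0.436%, 5.63% and 13.5%.

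Gene expression in the members was then compared between LPS and Control fetuses. Of 8644 genes tested, edgeR called 0%, while 39 passed 0.05 before adjustment. By DESeq2 there were likewise no calls, and 21 genes passed 0.05 before adjustment. The groups did not overlap for 1696 genes (19.6%), of which both LPS fetuses were above both controls in 864 (10%) and below in 832 (9.63%). Leaving out 1 fetus gave 26 calls without the Control female, 15 without the Control male, 16 without the LPS male and 9 without the LPS female.

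In none of the 17 lists was a gene called. Of 35 S phase genes both LPS fetuses were above both controls in 7 and below in 5, and of 47 mitosis genes in 6 and 0. Of 26 astroglial genes the counts were 2 and 1, of 9 Bergmann glia genes 0 and 0, and of 14 hedgehog genes 0 and 1. GFAP was at 114 CPM in the Control female, 73.8 in the Control male, 57.3 in the LPS female and 119 in the LPS male, without separation of the groups. Of 12 inflammation and glial reactivity genes 2 were above and 4 below. LIFR, the receptor of leukaemia inhibitory factor, was at 176 and 152 CPM in the Control female and male and at 83.3 and 111 CPM in the LPS female and male (log2 fold change −0.80 ± 0.363, unadjusted p = 0.0606 by edgeR). STAT3, the factor it activates, was at 69.5, 102.6, 91.5 and 132 CPM (0.35 ± 0.383).

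Because none was called, 9 of the 10 genes with the smallest unadjusted p are given as a description, and each had an adjusted p of 1.00 by edgeR. RGS6, which ends signalling of G protein coupled receptors, was at 27.02 CPM in the Control female, 43.3 in the Control male, 111 in the LPS female and 187 in the LPS male (log2 fold change 2.05 ± 0.437). It was also present in the RNA outside nuclei, at 85.0 to 255 CPM. With sex as a block the test called 2 genes, RGS6 and LUZP2. At 5 or more UMIs of SLC1A3 the log2 fold change of RGS6 was 0.60.

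PRUNE2 (1.65 ± 0.515) and HS6ST2 (1.41 ± 0.463) were higher in both LPS fetuses than in both controls. At 5 or more UMIs of SLC1A3 the log2 fold change was 1.41 for PRUNE2 and 0.14 for HS6ST2. WDR49 (−2.45), NTSR1 (−2.14), SHROOM4 (−1.94), INPP5D (−2.50), TSHZ2 (−2.56) and EYA4 (−1.95) were lower in both. These 6 genes had 0 to 16 UMIs in the members of each LPS fetus, and INPP5D and TSHZ2 had none in the LPS male. NTSR1 was at 39.6, 173, 21.8 and 25.5 CPM in members against 91.0, 76.8, 92.2 and 46.1 CPM in the RNA outside nuclei, and was thus below it in all but the Control male. INPP5D in the Control female and male (24.1 and 32.1 CPM) stood near its level outside nuclei (26.7 and 27.6 CPM).

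**Figure D5:**
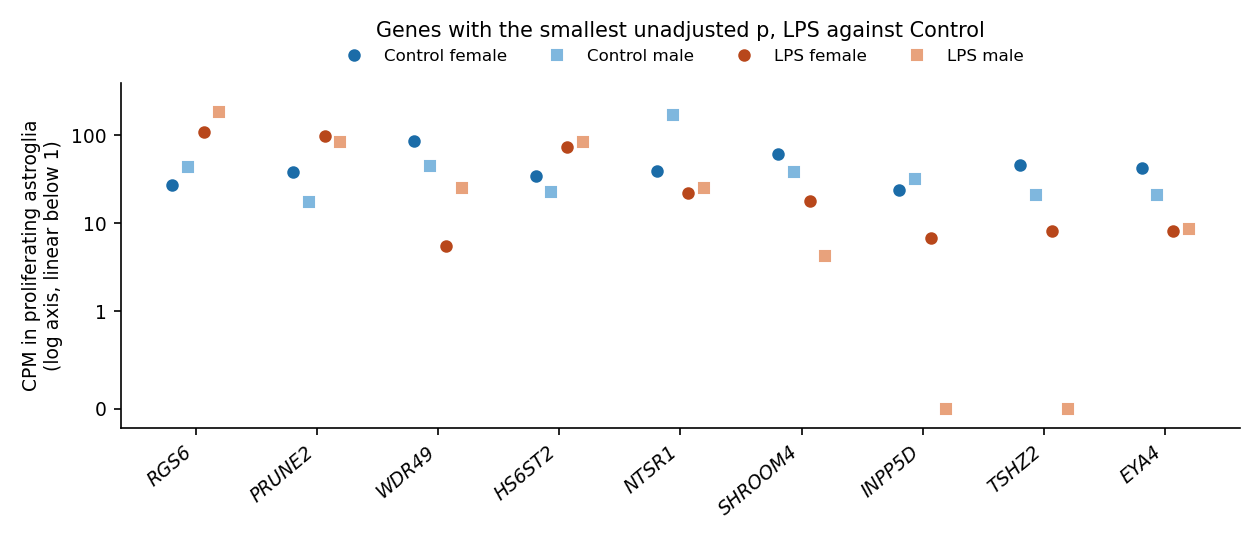
CPM of 9 of the 10 genes with the smallest unadjusted p between LPS and Control in members (log axis, linear below 1), with circles for female and squares for male fetuses. The groups do not overlap for any of the 9 genes, a choice that follows from ranking by p.

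A test of the interaction asked whether the LPS difference in members differed from that in non-proliferating SLC1A3 nuclei. Of 10918 genes, edgeR called 0%, with 202 past 0.05 before adjustment, and DESeq2 made no call, with 23 past 0.05 before adjustment. By edgeR 118 genes were called without the Control female, 17 without the Control male, and 0 without either LPS fetus.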

How the data were processed

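Nuclei of 4 fetal cerebella were sequenced by the authors as 10x libraries and mapped to the macaque genome with introns counted. The header of the deposited matrices names Cell Ranger version 4. The deposited values are raw UMI counts per gene and barcode for 30807 genes, with empty droplets kept; no removal of free RNA or doublets had been applied to them. From 34282015 to 61665690 counts per library, barcodes with 500 or more genes were kept as nuclei, and the classes were cut by the rule. Counts were summed per fetus and class and tested with edgeR 4.0.16 (R 4.3.3; filterByExpr, TMM, quasi-likelihood, Benjamini-Hochberg), with the fetus as a block between classes and no block between conditions; the method was tested on simulated data. The thresholds (adjusted p under 0.1, absolute log2 fold change over 0.25) take the study's numbers, for which the base of the logarithm is not given in the sources used here. CPM scale each gene's UMIs to the total of the class in that fetus. Shares and ratios used exact permutation over fetuses. Doublets were called with Scrublet (scanpy 1.11.5); its own threshold called under 0.5% in both male libraries, so the middle of the other thresholds was used there. Barcodes with 100 or fewer UMIs gave the free RNA, subtracted at the 0.25 quantile over markers of other cells, which was 0% to 45.1% in members. Alternatives were these, 1000 genes, 4 proliferation genes, 3 or 5 SLC1A3 UMIs, 5% mitochondrial UMIs, thinning to 1000 or 2000 UMIs, the number of nuclei the study gives, other limits for both comparison classes, DESeq2 1.42.0, RLE factors, no filter, sex as a block and leaving out each fetus. Named genes were called list members with the smallest p (at most 4), or where none was called those with the highest mean CPM, the 10 largest called changes between classes (mean CPM of 50 or more, same direction in 4 fetuses) and the 10 smallest p between conditions; other list genes are named after their values were seen, and a few genes that the rule names are not reported here. The members, the 17 lists and the tests were chosen with earlier results of these data known. Of the genes, 8600 had no symbol.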

Additional observations from a re-analysis of the deposited data

Results flagged for a closer look

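With the settings of the report, several readouts moved in opposite directions in female and male fetuses. The share of proliferating astroglia among all nuclei differed between LPS and Control by 0.111 points in the females and by −0.423 points in the males. The share of SLC1A3 nuclei that were proliferating differed by 1.71 points in the females and by −2.63 points in the males. After thinning to 2000 UMIs this share was lower in LPS in both sexes. It was then 5.80% against 5.91% in the females and 4.23% against 6.53% in the males. Thinned to 1000 UMIs the sexes again moved apart, at 4.60% against 3.88% in the females and 1.09% against 2.73% in the males. The log2 ratio of mitosis to S phase UMIs differed by −0.02 (−0.0192) in the females and by 0.12 (0.116) in the males. At 3 or more and at 5 or more UMIs of SLC1A3 this ratio was higher in the LPS fetus of both sexes. It was lower in the LPS fetus of both sexes after thinning to 2000 UMIs and with free RNA subtracted. The opposite movement of the ratio thus depends on the setting. With 1 fetus per sex and condition, the difference between the sexes was not tested. The LPS male had the fewest members (34) and the smallest share of its UMIs in nuclei (38.7%), and their part in these differences was not tested.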

How the results depend on the processing

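The labels give no replicate numbers that pair the groups, but each group held 1 female and 1 male, and the fit paired by sex (sex as a block) called 2 genes between LPS and Control, with 320 under an unadjusted p of 0.05 against 39 without the block. The share of all nuclei turned from −0.156 to 0.111 points within the females and ranged from −0.582 to 0.271 when 1 fetus was left out (0.0039 without the Control female, 0.271 without the LPS male). The share of SLC1A3 nuclei turned to 1.71 within the females and ranged from −2.82 to 1.90 (1.90 without the LPS male), and that of proliferating nuclei ranged from −2.98 to −0.798. The log2 mitosis to S phase ratio turned to −0.000902 with 4 or more proliferation genes and to −0.0192 within the females, and ranged from −0.00183 (without the LPS male) to 0.0983. After thinning to 2000 UMIs it was 0.76 and 0.79 in the Control female and male against 0.63 and 0.73 in the LPS female and male. With free RNA subtracted, of which none was taken from the members of the LPS male, it was 0.73 and 0.80 against 0.69 and 0.77. The difference was thus turned in both settings, and neither is among the ratio values counted next. In all 49 of 57 alternative values of shares and ratio kept their direction. Genes called between LPS and Control numbered 5 with no filter on low counts (BCAS1, FLT1, LUZP2, RPAP1 and TTR), 2 with the sex block (LUZP2 and RGS6) and 9 to 26 with 1 fetus left out. Against non-proliferating SLC1A3 nuclei, genes lower numbered 316 with doublets left out, 354 in DESeq2, 1105 with no filter, 402 after thinning to 2000 UMIs, 1074 with 2 or fewer proliferation genes allowed, and 280 to 699 with 1 fetus left out. Genes higher there numbered 571 in DESeq2, 595 after thinning and 562 to 913 with 1 fetus left out. The higher genes were 56.5% of calls with the settings of the report, 46.3% with no filter and 66.3% with doublets left out. Against proliferating nuclei without SLC1A3, genes lower numbered 449 in DESeq2, 548 after thinning and 518 to 954 with 1 fetus left out, and genes higher 699 after thinning and 851 to 1380. The interaction gave 4 calls with no filter (RGS6, RPS18 and 2 genes without a symbol) and 0 to 118 with 1 fetus left out. Of the values of named genes, 745 of 823 against non-proliferating nuclei and 878 of 915 against the other class kept their direction and side of the threshold. A fit without 1 fetus assumes that the lone fetus left in its group varies like the other group. The cause of these changes was not tested. The members' summed UMIs limit low genes most in the LPS male, with 34 nuclei.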

Other observations

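Some genes were higher in members than in both other classes. They were picked after their values were seen, among the genes called in the same direction in both comparisons, and are given as values. GADD45G, a growth arrest and stress gene that is transiently expressed in neural progenitors, was at 58.9 CPM in the members of the Control female, 4.81 in the Control male, 36.9 in the LPS female and 21.3 in the LPS male. Non-proliferating SLC1A3 nuclei had 20.7, 3.70, 16.2 and 7.65 CPM and proliferating nuclei without SLC1A3 had 15.2, 0, 11.7 and 3.94 CPM. The log2 fold changes were 1.27 ± 0.249 (edgeR adjusted p = 0.00583) and 2.05 ± 0.300 (edgeR adjusted p = 0.000321), and both calls held with doublets left out (1.57 and 2.39). All genes of the members summed to 623544 UMIs in the Control male and 235195 in the LPS male. The male values of GADD45G thus rest on few molecules, also the 4.81 against 3.70 CPM of the Control male.

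PTPN3, a protein tyrosine phosphatase, was at 106, 109, 90.1 and 111 CPM in members against 46.0, 58.6, 43.1 and 88.7 CPM in non-proliferating nuclei and 45.1, 58.6, 39.5 and 52.6 CPM in proliferating nuclei without SLC1A3. It was higher in each fetus (0.89 ± 0.164 and 1.19 ± 0.154), and with doublets left out at 0.83 and 1.20. AGBL4, a tubulin deglutamylase, was higher in each fetus too, at 374, 407, 628 and 357 CPM in members against 232, 300, 254 and 226 and against 225, 229, 259 and 318 CPM (0.76 and 0.87). In the other direction, the collagen gene COL4A5 was at 285, 324, 198 and 204 CPM in members against 307, 403, 315 and 253 and against 545, 396, 421 and 451 CPM (−0.37 and −0.76).

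FKBP5, a glucocorticoid-induced chaperone partner on the inflammation list, lay between the classes, on 53, 20 and 49 UMIs in the members of the Control female, Control male and LPS female but on only 2 in the LPS male. It was at 51.1, 32.1, 66.9 and 8.50 CPM in members, against 14.7, 12.1, 16.2 and 3.06 CPM in non-proliferating nuclei and 118, 98.8, 137 and 51.3 CPM in proliferating nuclei without SLC1A3 (1.74 ± 0.224 and −1.21 ± 0.188).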
